A study of Homo sapiens with 12 samples.

Results

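Matrix metalloproteinases (MMPs) and 2 of their tissue inhibitors were followed in single-cell RNA sequencing (scRNA-seq) data from 3 established lines of head and neck squamous carcinoma (HNSCC). The 10 genes are MMP1, MMP2, MMP3, MMP7, MMP9, MMP10, MMP13, MMP14, TIMP1 and TIMP3. They were chosen by name from the rows of the count tables, with earlier results of these data known. All 10 were among the 33514 gene symbols of the tables, and all 10 passed the filter on low counts. The lines SCC1, SCC6 and SCC25 were given 100 nM cetuximab, a blocking antibody to EGFR (epidermal growth factor receptor), each day for 5 days, or phosphate-buffered saline (PBS, untreated). Each of the 6 groups had 2 replicates, which made 12 samples with 961 to 2854 cells and 57057402 to 112170073 unique molecular identifiers (UMIs, counted molecules) per sample. The lines were grown in culture by themselves, without stromal or immune cells. Whether replicates were separate cultures is not given in the sources, and the p-values then cover only the spread between these samples, which may be technical.

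MMPs are zinc-dependent enzymes that cut collagens, other matrix proteins and some cell surface proteins. Most are secreted as inactive precursors. MMP14 is anchored in the plasma membrane, where it activates the MMP2 precursor with the help of TIMP2. TIMPs bind the active site of MMPs and block it, and TIMP3 also blocks several ADAM proteases. In squamous carcinomas MMPs are known for their part in invasion through the basement membrane, and EGFR signalling through AP-1 factors is a classical inducer of several secreted MMP genes.

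Of the 10 genes, 5 lie together on the long arm of chromosome 11 (RefSeq, GRCh38.p14). They span 435.2 kb, from MMP7 (chr11:102520508-102530747) through MMP10 (chr11:102770502-102780628), MMP1 (chr11:102789919-102798160) and MMP3 (chr11:102835801-102843609) to MMP13 (chr11:102942995-102955732). The other 5 lie apart, with MMP14 at chr14:22836585-22847758, MMP2 at chr16:55478830-55506691, MMP9 at chr20:46008908-46016561, TIMP3 at chr22:32801705-32863041 and TIMP1 at chrX:47582436-47586789. RefSeq promoters were at hand for 5 of the 10 genes, MMP7, MMP10, MMP14, TIMP1 and TIMP3. The 120 bases before each start site are shown because the 2 proximal promoters from the chromosome 11 cluster differ in layout from the other 3. Capitals mark the AP-1 motif TGANTCA, searched on both strands, and the TATA motif TATAAA, searched on the gene strand:
MMP7 (chr11:102530748-102530867, minus strand): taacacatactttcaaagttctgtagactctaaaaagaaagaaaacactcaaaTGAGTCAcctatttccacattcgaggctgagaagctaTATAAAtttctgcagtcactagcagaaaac
MMP10 (chr11:102780629-102780748, minus strand): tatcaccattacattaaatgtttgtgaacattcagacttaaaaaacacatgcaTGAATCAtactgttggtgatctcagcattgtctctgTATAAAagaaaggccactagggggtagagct
MMP14 (chr14:22836465-22836584, plus strand): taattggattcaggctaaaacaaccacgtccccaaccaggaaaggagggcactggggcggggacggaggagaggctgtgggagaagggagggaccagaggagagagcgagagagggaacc
TIMP1 (chrX:47582316-47582435, plus strand): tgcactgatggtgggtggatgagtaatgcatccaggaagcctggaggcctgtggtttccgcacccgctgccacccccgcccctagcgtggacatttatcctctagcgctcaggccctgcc
TIMP3 (chr22:32801585-32801704, plus strand): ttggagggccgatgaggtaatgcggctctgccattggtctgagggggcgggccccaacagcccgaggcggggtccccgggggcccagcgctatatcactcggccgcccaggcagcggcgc

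The MMP7 and MMP10 promoters each held 1 AP-1 motif that began 67 bases before the start. A TATA motif followed at 30 bases in MMP7 and at 31 bases in MMP10. In the 250 bases before the start, the AP-1 motif was found in 6.57% and the TATA motif in 6.8% of 35116 promoters. Neither motif was found letter for letter in that window of MMP14, TIMP1 or TIMP3. Near matches, such as tgagtaa in the TIMP1 stretch, were not searched, so a site of other letters may be present. The SP1 motif GGGCGG, searched on both strands, occurred once in MMP14, at 2 places in TIMP1 and at 5 places in TIMP3, and was found in 42.6% of promoters. It was not found in MMP7 or MMP10. These matches are letters in a window and were not tested as binding sites.

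The untreated lines differed widely in the genes they expressed. Levels are given as CPM, the UMIs of a gene per 1000000 UMIs of the sample, replicate 1 first. Of the 2 collagenases, which open the triple helix of fibrillar collagen, MMP1 stood at 0.0160 and 0.424 CPM in untreated SCC1, at 6.02 and 14.2 CPM in SCC6 and at 40.1 and 233 CPM in SCC25. MMP13 stood at 0.0960 and 0.0653 CPM in SCC1, at 17.8 and 38.4 CPM in SCC6 and at 27.1 and 122 CPM in SCC25. For both, SCC1 lay below the other 2 lines without overlap, whereas the MMP13 values of SCC6 and SCC25 overlapped.

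The gelatinase MMP2, which cuts basement membrane collagen, followed the same order of lines. It was nearly absent from SCC1, at 0.112 and 0.163 CPM, and stood at 7.07 and 19.6 CPM in SCC6 and at 30.8 and 46.8 CPM in SCC25. MMP7, or matrilysin, was at 0.0160 and 0.0544 CPM in SCC1, at 4.34 and 3.52 CPM in SCC6 and at 4.24 and 11.7 CPM in SCC25. For the stromelysin MMP10, no UMI was counted in untreated SCC1, which allows a level of up to 0.0194 CPM (3 counts over the group, counting error only). MMP10 reached 1.22 and 3.64 CPM in SCC6 and 1.68 and 5.03 CPM in SCC25. The group means, 2.43 CPM in SCC6 and 3.35 CPM in SCC25, lay 125-fold and 173-fold above that floor.

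SCC1 was thus low in 5 of the MMPs, but not in all 10 genes. MMP14 was found in each line, at 47.9 and 43.0 CPM in SCC1, 22.7 and 30.4 CPM in SCC6 and 65.9 and 64.3 CPM in SCC25. MMP9, the second gelatinase, was scarce in all 3 lines, at 0.640 and 2.32 CPM in SCC1, 0.169 and 0.632 CPM in SCC6 and 2.53 and 1.54 CPM in SCC25. MMP3, the other stromelysin, lay between 0.279 and 0.605 CPM in the 6 untreated samples. TIMP1 was at 67.7 and 65.4 CPM in SCC1, 89.4 and 115 CPM in SCC6 and 111 and 102 CPM in SCC25. TIMP3 showed the opposite order, with 185 and 150 CPM in SCC1, 177 and 122 CPM in SCC6 and 60.4 and 57.5 CPM in SCC25.

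Differences were tested on UMI counts summed per sample with edgeR's quasi-likelihood test, with Benjamini-Hochberg adjustment over 17897 genes and a threshold of 0.05. Between untreated SCC6 and SCC1, 6 of the 10 genes differed (MMP1, MMP2, MMP7, MMP10, MMP13 and TIMP1), all higher in SCC6, against 40.2% of all genes called. Between SCC25 and SCC1, 8 of 10 differed, against 40.8% of all genes. These were the same 6 genes and MMP14, all higher in SCC25, and TIMP3, which was lower by 1.31 on the log2 scale (log2 difference of -1.31 ± 0.24 SE, adjusted p = 0.00197). Between SCC25 and SCC6, 4 of 10 differed, against 40.9% of all genes: MMP14, MMP2 and MMP1 were higher in SCC25 and TIMP3 was lower. MMP9 stood at the threshold of 0.05 itself in that comparison and was not called. Between SCC25 and SCC1 the log2 difference was 10.09 ± 1.04 for MMP13 (adjusted p = 5.44e-05), 9.35 ± 1.53 for MMP1 (adjusted p = 0.000962) and 8.29 ± 0.58 for MMP2 (adjusted p = 6.05e-06).

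**Figure D1:**
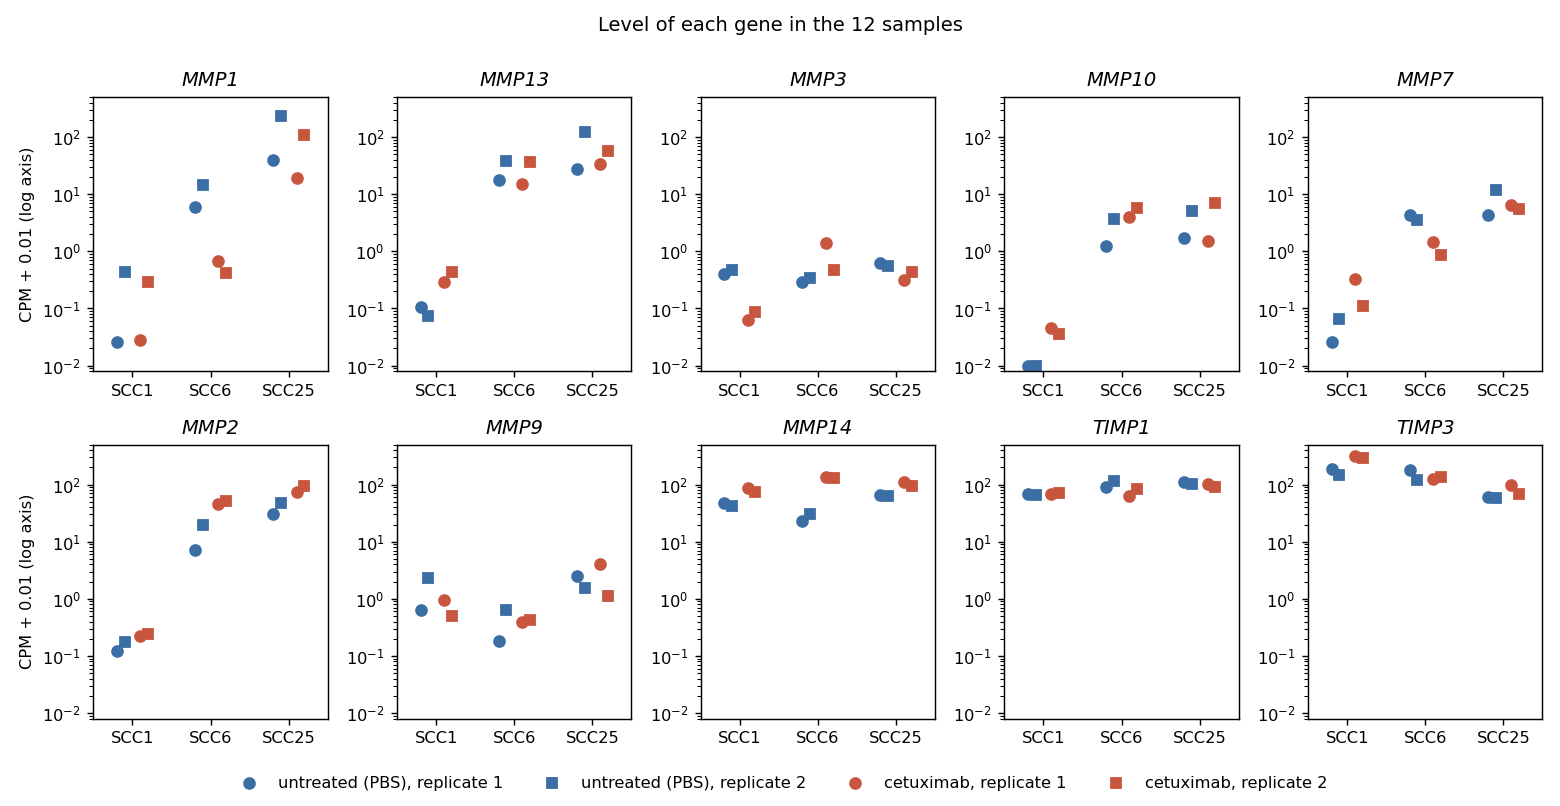
Level of each of the 10 genes in each of the 12 samples, as CPM plus 0.01 on a log axis; 1 panel per gene, lines along the horizontal axis, blue for untreated (PBS) and red for cetuximab, circles for replicate 1 and squares for replicate 2. MMP1, MMP2, MMP7, MMP10 and MMP13 lie under 0.5 CPM in all 4 SCC1 samples, while MMP14, TIMP1 and TIMP3 lie above 20 CPM in all 12.

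The question of the cetuximab comparison was which of these genes respond while the cells are still sensitive to EGFR blockade. Same-numbered treated and untreated samples of a line deviated together from their group means. The fit of the cetuximab effects was therefore repeated with the replicate number within each line as a block. With 2 replicates, swapping the numbers in a group only turns the sign of such a correlation. The correlations thus cannot show that the samples were paired, and calls with the block rest on that assumption. MMP14 was higher after cetuximab in every line and in both replicates. It went from 22.7 and 30.4 to 135 and 128 CPM in SCC6, from 47.9 and 43.0 to 85.6 and 73.8 CPM in SCC1, and from 65.9 and 64.3 to 110 and 95.8 CPM in SCC25. No treated sample overlapped the untreated samples of its line. In SCC6 the increase was 2.09 ± 0.19 on the log2 scale (adjusted p = 0.00214), and MMP14 was the only 1 of the 10 genes called in that line, against 3.81% of all genes. The call was kept in 12 of 12 fits that each left out 1 sample, with adjusted p from 0.00351 to 0.0298.

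In SCC1 the MMP14 log2 fold change was 0.76 ± 0.18 (adjusted p = 0.219), which passed the threshold with the replicate block (adjusted p = 0.0281). In SCC25 it was 0.63 ± 0.18 (adjusted p = 0.590, and 0.0961 with the block). Over the 3 lines, with the line as a covariate, MMP14 rose by 1.15 ± 0.22 on the log2 scale (adjusted p = 0.0171). Left out in turn, 11 of the 12 samples kept this call, and without untreated SCC6 replicate 2 the adjusted p was 0.0550. Across the lines 2 of the 10 genes were called, MMP14 and MMP2, against 3.67% of all genes. Both were higher, as were 2.53% of all genes, while 1.13% were called lower.

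MMP2, whose precursor MMP14 activates, was higher after cetuximab in the 2 lines that expressed it. It went from 7.07 and 19.6 to 45.6 and 52.4 CPM in SCC6 and from 30.8 and 46.8 to 73.2 and 94.0 CPM in SCC25, without overlap in either line. Within each pair of same-numbered samples, the ratio of cetuximab to PBS was 6.44 and 2.67 for SCC6, and for SCC25 it was 2.37 and 2.01. SCC1 held 7 to 18 MMP2 UMIs per sample, too few for a statement on its change. Over the 3 lines MMP2 rose by 1.23 ± 0.26 on the log2 scale (adjusted p = 0.0283), but that call was kept in only 5 of 12 fits that left out 1 sample, with adjusted p up to 0.0733. In SCC6 alone the log2 fold change of 1.67 ± 0.41 missed the threshold (adjusted p = 0.0511) and passed it with the block (1.81 ± 0.25, adjusted p = 0.00334), where 20.1% of all genes were called. In SCC25 it was 1.07 ± 0.40 (adjusted p = 0.764, and 0.0909 with the block).

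The collagenase MMP1 showed lower values after cetuximab in SCC6 and SCC25. In SCC6 it went from 6.02 and 14.2 CPM, or 604 and 1464 UMIs, to 0.671 and 0.400 CPM, or 51 and 36 UMIs. The groups were far apart, and the log2 fold change was -4.46 ± 1.25 (adjusted p = 0.0784). With the block it was -4.37 ± 0.37 and called (adjusted p = 0.000582). In SCC25 the samples went from 40.1 and 233 to 19.0 and 108 CPM. Replicate 2 exceeded replicate 1 there 5.82-fold among untreated and 5.66-fold among treated samples, so that the treated and untreated values overlapped. Within each pair of same-numbered samples the ratio of cetuximab to PBS was close, 0.475 and 0.462. The SCC25 log2 fold change was -1.17 ± 1.05 (adjusted p = 1, and 0.126 with the block). Over the 3 lines it was -2.23 ± 0.87 (adjusted p = 0.165), which was called with the block (-2.24 ± 0.62, adjusted p = 0.0491), where 11.6% of all genes were.

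MMP13, the other collagenase, did not follow MMP1 in SCC6. It stood at 17.8 and 38.4 CPM in untreated and 15.3 and 37.0 CPM in treated SCC6, and its log2 fold change was -0.31 ± 0.65 (adjusted p = 0.847). The ratios within pairs were 0.857 and 0.964. In SCC25 it went from 27.1 and 122 to 33.9 and 56.0 CPM, up in replicate 1 and down in replicate 2. Replicate 2 was the higher in both groups, by 4.5-fold and 1.65-fold. SCC1 held 6 to 34 MMP13 UMIs per sample, with 0.0960 and 0.0653 CPM untreated and 0.280 and 0.431 CPM treated (adjusted p = 0.622).

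The stromelysins and matrilysin were expressed at low levels, and their changes had different directions in different lines. MMP3 went from 24 and 42 to 3 and 6 UMIs in SCC1, or from 0.384 and 0.457 to 0.0526 and 0.0761 CPM. That log2 fold change of -2.71 ± 0.62 was not called (adjusted p = 0.195), but was with the block (adjusted p = 0.0432). In SCC6 MMP3 was higher after treatment, from 0.279 and 0.331 to 1.39 and 0.456 CPM (adjusted p = 0.160), and in SCC25 it went from 0.605 and 0.535 to 0.307 and 0.430 CPM. MMP7 went from 4.34 and 3.52 to 1.47 and 0.867 CPM in SCC6. Its log2 fold change was -1.99 ± 0.55 (adjusted p = 0.0763) and with the block it was called (adjusted p = 0.0175). In SCC25 MMP7 stood at 4.24 and 11.7 CPM untreated and 6.46 and 5.39 CPM treated, which overlapped.

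MMP10 had 2 UMIs in each treated SCC1 sample. In SCC6 it went from 1.22 and 3.64 to 3.97 and 5.63 CPM (log2 fold change of 0.78 ± 0.76, adjusted p = 0.621). In SCC25 it was at 1.68 and 5.03 CPM untreated and 1.51 and 6.99 CPM treated, again with replicate 2 above replicate 1 in both groups. MMP9 overlapped between treated and untreated samples in each line, with 0.929 and 0.482 CPM in treated SCC1, 0.382 and 0.422 CPM in treated SCC6 and 4.09 and 1.09 CPM in treated SCC25. Its largest log2 fold change in size was -1.18 ± 0.79 in SCC1 (adjusted p = 0.779).

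Both inhibitors were found in all lines. TIMP1 went from 89.4 and 115 to 62.6 and 84.1 CPM in SCC6, a log2 fold change of -0.70 ± 0.20 (adjusted p = 0.0824), which was called with the block (adjusted p = 0.00698). It stood at 68.1 and 70.3 CPM in treated SCC1 and at 102 and 91.4 CPM in treated SCC25, with log2 fold changes of 0.0077 ± 0.20 and -0.16 ± 0.20. TIMP3 went from 185 and 150 to 315 and 289 CPM in SCC1, where no sample overlapped and the log2 fold change was 0.81 ± 0.24 (adjusted p = 0.331, and 0.0617 with the block). In SCC25 it went from 60.4 and 57.5 to 97.3 and 68.4 CPM (0.46 ± 0.24, adjusted p = 0.908). In SCC6 TIMP3 stood at 177 and 122 CPM untreated and 123 and 136 CPM treated.

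In SCC1, edgeR called 0 of the 10 genes, against 0.0168% of all genes. At an unadjusted p under 0.05 there were 4 (MMP3, MMP7, MMP14 and TIMP3), against 1570 of all 17897 genes. DESeq2 called 2, MMP14 and MMP3. In SCC25 edgeR called 0 of the 10, against 0.0% of all genes. At an unadjusted p under 0.05 there were 2 (MMP14 and MMP2), against 1041 of all 17897 genes, and DESeq2 called 0 of the 10. In SCC6 the count was 5 with the block and with DESeq2, in place of 1, and each of these 2 fits called MMP1, MMP2, MMP7, MMP14 and TIMP1. With the block, called genes came to 4.45% of all genes in SCC1 and 0.978% in SCC25. With DESeq2 they came to 1.53% in SCC1, 9.34% in SCC6 and 0.564% in SCC25.

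Over the 10 genes the median log2 fold change was 0.67 for SCC1, -0.26 for SCC6 and 0.06 for SCC25, compared with 0.0012, 0 and -0.0068 over all genes tested. The SCC1 median includes MMP1, MMP2, MMP7, MMP10 and MMP13, which held only 0 to 39 UMIs per SCC1 sample. With the block the SCC25 median was -0.04. The 3 lines have their own controls, while the comparison across lines reuses them all.

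Whether the cetuximab effect differed between the lines was tested as an interaction. None of the 10 genes passed it, against 0.0% of all genes. At an unadjusted p under 0.05 there were 4 (MMP3, MMP7, MMP14 and TIMP3), against 1318 of all 17897 genes. With the block, where 1.29% of all genes were called, MMP14 (adjusted p = 0.0279) and MMP1 (adjusted p = 0.0312) passed. DESeq2 called MMP3, MMP7 and MMP14, against 1.54% of all genes. The MMP14 log2 fold change of SCC6 lay 1.32 ± 0.26 above that of SCC1 and 1.46 ± 0.26 above that of SCC25. For MMP3 the effect in SCC6 lay 4.07 ± 0.79 above that in SCC1.

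**Figure D2:**
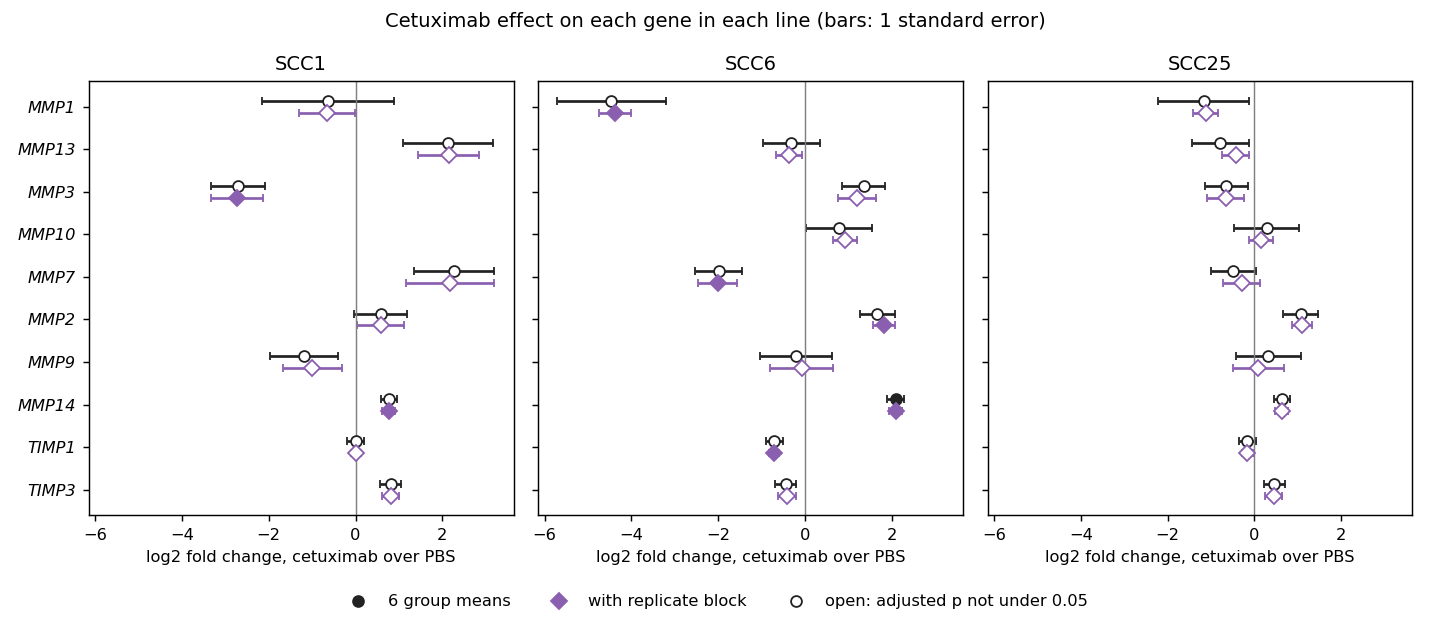
Log2 fold change of cetuximab over PBS (horizontal axis) for each gene (vertical axis) in each line; black circles are the fit with 6 group means, purple diamonds the fit with the replicate block, bars are 1 standard error and filled symbols have an adjusted p under 0.05. MMP10 in SCC1 is left out because both untreated samples held no UMI. MMP14 lies right of 0 in all 3 lines and is the only filled circle, at 2.09 in SCC6.

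To see whether levels changed in many cells or in few, each cell was thinned at random to 15000 UMIs and the share of cells with at least 1 UMI of a gene was taken. This left out 851 of 23914 cells (3.56%), from 2.39% of treated SCC1 to 6.12% of treated SCC6. Genes that these lines should lack (PTPRC, CD3E, ALB and HBB) were found in at most 0.16% of thinned cells in any sample. That highest share was of HBB in SCC25, and none of these background genes was found in thinned SCC1 cells. In SCC1, MMP1, MMP2, MMP7 and MMP10 stayed at or below 0.412% of cells and MMP13 at or below 0.891%. Whether these few SCC1 cells are background was not tested.

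MMP14 was found in 26.8% and 34.6% of untreated and in 79.4% and 78.7% of treated SCC6 cells. Both other lines also had higher shares after cetuximab, from 47.4% and 45.8% to 64.4% and 62.7% in SCC1 and from 53.8% and 57.2% to 70.4% and 69.4% in SCC25. Without thinning the SCC6 shares were 47.4% and 62.3% against 88.8% and 97.0%. MMP2 went from 9.92% and 23.2% to 44.8% and 50.7% of SCC6 cells and from 35.1% and 46.9% to 59.7% and 67.3% of SCC25 cells. Without thinning it was in 18.8% and 43.7% of untreated and 60.2% and 80.4% of treated SCC6 cells.

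MMP1 went the other way, from 5.05% and 9.36% to 0.772% and 0.671% of SCC6 cells. In SCC25 it was found in 20.2% and 45.9% of untreated and 12.8% and 26.6% of treated cells. MMP13 was in 9.73% and 19.3% of untreated and 13.7% and 20.4% of treated SCC6 cells, and in 20.4% and 52.6% of untreated and 24.2% and 31.6% of treated SCC25 cells. MMP7 went from 4.37% and 3.82% to 1.70% and 0.854% of SCC6 cells. The shares were not tested. MMP10 was in 1.17% and 3.53% of untreated and 4.63% and 6.35% of treated SCC6 cells, and in 1.46% to 4.59% of SCC25 cells over the 4 samples. MMP9 did not exceed 4.95% and MMP3 did not exceed 2.24% in any sample. TIMP1 was in 52.5% to 79.1% and TIMP3 in 45.9% to 88.9% of cells over the 12 samples.

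**Figure D3:**
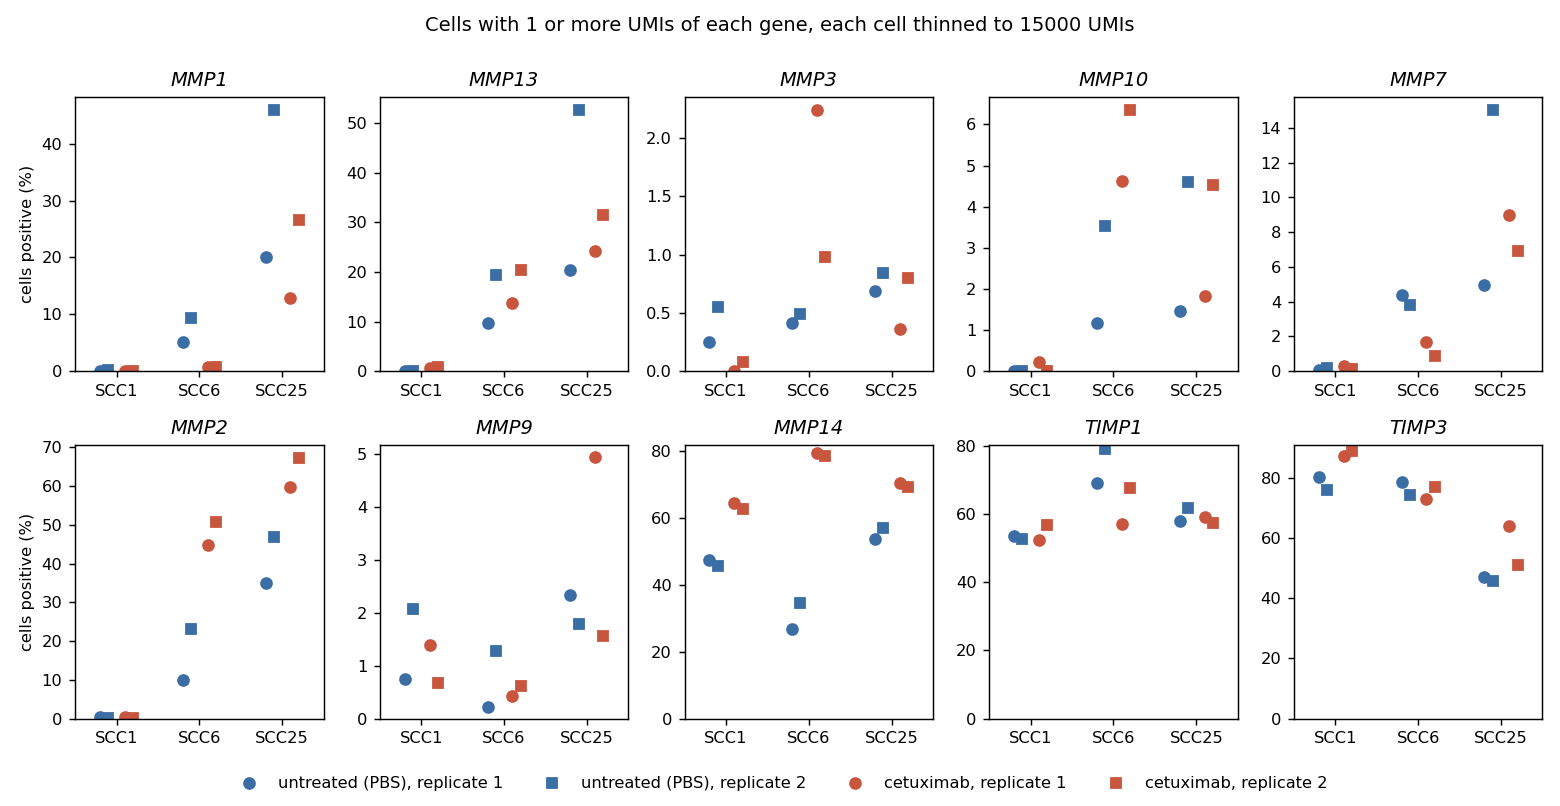
Share of cells, in percent, with 1 or more UMIs of each gene after each cell was thinned to 15000 UMIs, for the 12 samples; colours and symbols as in the plot of levels, with a vertical axis from 0 that differs between panels. The MMP14 share in SCC6 goes from 26.8% and 34.6% to 79.4% and 78.7%, and the MMP1 share goes to 0.772% and 0.671%.

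The UMIs of several secreted MMPs sat to a large part in few cells. In SCC25 the 1% of cells with most MMP1 UMIs held 24.3% to 36.6% of all MMP1 UMIs of a sample. For MMP10 the 1% of cells with most MMP10 UMIs held 55.9% to 70.7% in SCC25 and 37.1% to 59.0% in SCC6. For MMP13 the 1% of cells with most MMP13 UMIs held 12.6% to 24.0% in SCC25 and 25.8% to 44.1% in SCC6. MMP9, which lies outside the chromosome 11 cluster, stood at 32.2% to 43.4% in SCC25, partly above the range of MMP1. It had only 114 to 360 UMIs per SCC25 sample, against 1676 to 26156 of MMP1. A single cell of treated SCC25 replicate 2 held 1078 of the 11270 MMP1 UMIs of that sample. In treated SCC6 replicate 2, 1 cell held 438 of 3329 MMP13 UMIs.

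MMP14 and the inhibitors had lower shares in their own top 1% of cells, which was taken for each gene by itself. The top 1% of cells held 4.38% to 8.25% of MMP14 UMIs, 4.11% to 12.1% of TIMP1 UMIs and 5.73% to 9.82% of TIMP3 UMIs over the 8 SCC6 and SCC25 samples. MMP2 lay close to MMP14 in SCC25, at 4.99% to 7.78%, and ranged from 5.77% to 15.5% in SCC6. A gene with few UMIs has a high share by counting alone, as with the 122 MMP10 UMIs in the 2731 cells of untreated SCC6 replicate 1, so that shares of scarce and abundant genes are not alike in this respect. In untreated SCC25 replicate 2 MMP1 was the more abundant, with 26156 UMIs against 7218 of MMP14, and had the higher share, 24.3% against 5.71%. Cells that hold more UMIs of any gene enter these shares with their full depth, and the part of depth was not tested.

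**Figure D4:**
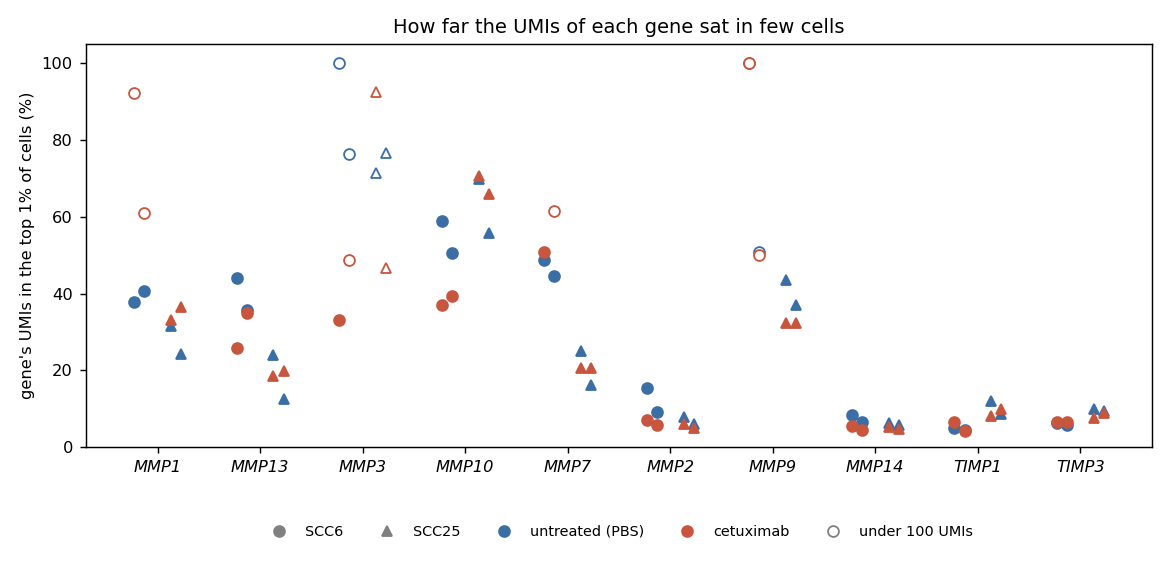
Percent of all UMIs of a gene held by the 1% of cells with most of them (vertical axis), per sample of SCC6 (circles) and SCC25 (triangles), blue for PBS and red for cetuximab; open symbols are samples with under 100 UMIs of the gene. MMP14, TIMP1 and TIMP3 stay under 13%, while MMP10 lies between 37% and 71%.

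At the median, genes of the cluster were found together in the same cells more often than their separate shares would give. For each pair, the number of thinned cells positive for both was set beside the number expected from the 2 shares in that sample, for pairs with at least 5 cells expected. With both genes on chromosome 11, the observed number was at the median 1.61 times the expected in SCC25 (24 values, 1.04 to 3.72) and 1.74 times in SCC6 (12 values, 0.664 to 2.98). Pairs with neither gene on chromosome 11 had medians of 1.06 (40 values, 0.671 to 1.27) and 1.03 (35 values, 0.856 to 1.48). Mixed pairs had medians of 1.12 (86 values, 0.486 to 1.53) and 1.03 (76 values, 0.554 to 1.96). The highest mixed ratio in SCC6 was that of MMP2 with MMP10, at 1.34 to 1.96 in 3 samples. The ratio of a pair cannot exceed 1 divided by the larger of its 2 shares. Every pair with neither gene on chromosome 11 included MMP2, MMP14, TIMP1 or TIMP3. MMP14, for instance, was in 79.4% and 78.7% of treated SCC6 cells. Pairs with a gene in many cells are thus capped at lower ratios than pairs of scarce genes. The part of abundance in these medians was not tested. The values share cells and genes, and no test was made.

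Ratios of 1.8 to 3.72 in SCC25 were found for MMP1 with MMP10, and of 1.64 to 3.06 for MMP10 with MMP13. In untreated SCC25 replicate 1, 186 of 2188 cells held both MMP1 and MMP13 where 90.1 were expected, and MMP13 was in 42.2% of cells with MMP1 and in 14.9% of cells without it. In treated SCC25 replicate 2, 325 of 1993 cells held both where 168 were expected. MMP10 and MMP1 met in 71 of those 1993 cells where 24.0 were expected. In the same sample MMP13 was in 80% of cells with MMP10 and in 29.3% of cells without it. In SCC6, MMP10 and MMP13 met in 37 cells of treated replicate 1 where 16.4 were expected, and in 49 cells of treated replicate 2 where 21.3 were. MMP7 met MMP1 at 1.17 to 1.59 times the expected number in the 4 SCC25 samples, and MMP13 at 1.24 to 1.84 times. In SCC6 it met MMP1 in 4 and 9 untreated cells where 5.86 and 8.70 were expected, and MMP13 at 0.664 to 1.72 times the expected number in 3 samples.

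When the 5% of cells of highest UMI number, among which doublets would be, were left out of each sample, a setting added after the data were seen, the medians for pairs on chromosome 11 were 1.59 in SCC25 and 1.61 in SCC6.

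**Figure D5:**
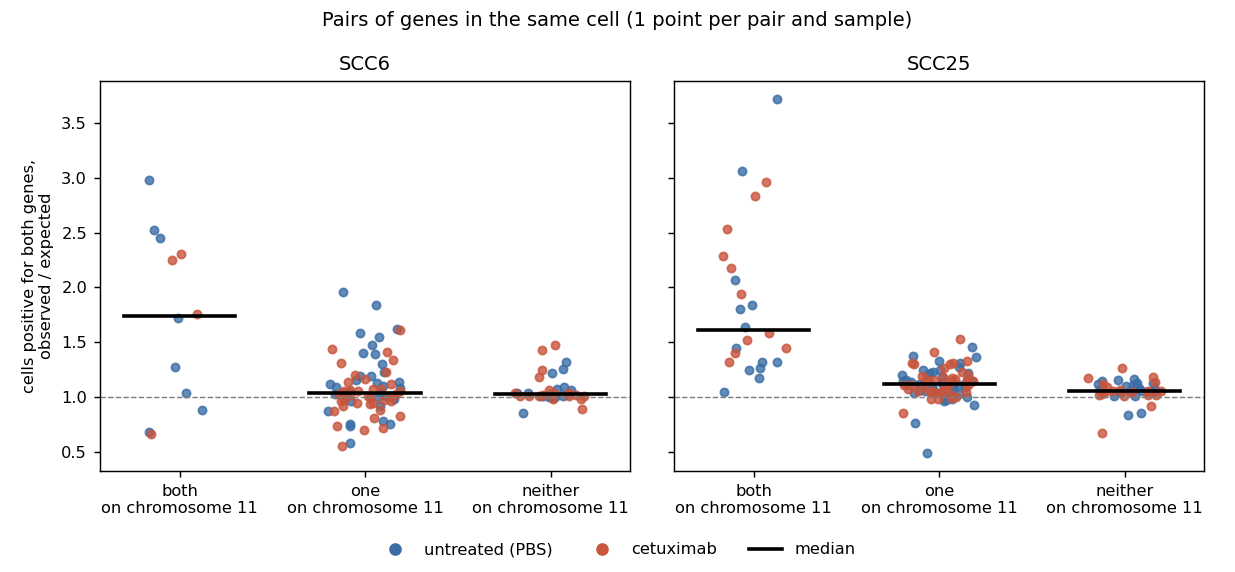
Observed over expected number of cells positive for both genes of a pair (vertical axis), 1 point per pair and sample, for SCC6 and SCC25, grouped by whether both, 1 or neither gene lies on chromosome 11; blue for PBS, red for cetuximab, black bars for medians, dashed line at 1. The medians for pairs with both genes on chromosome 11 are 1.74 in SCC6 and 1.61 in SCC25, against 1.03 and 1.06 for pairs with neither. Pairs with a gene in many cells are capped at lower ratios than pairs of scarce genes.

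Across the 12 samples, after the mean of each line was taken off, log2(CPM + 1) of MMP14 and MMP2 had a Pearson r of 0.87 and MMP14 and MMP1 one of -0.72. MMP1 and MMP13 had 0.59. These describe 12 samples that share lines, treatment and libraries. Among 7583 genes with a mean of at least 10 CPM, the most similar to MMP14 were MYL7 (r = 0.991), ARFGAP1 (0.988) and ANTXR1 (0.985). Those most similar to MMP2 were BLCAP (0.984), ATAT1 (0.964) and BAMBI (0.964), and to MMP1 CKMT1B (0.923), MECR (0.918) and ELF3 (0.907). For MMP13 they were NAPRT (0.95), CRNKL1 (0.945) and KPTN (0.945). TIMP1 was closest to PRR13 (0.959), ARL2 (0.926) and HAX1 (0.925), and TIMP3 to CXCL16 (0.929), FBXO6 (0.924) and C1GALT1 (0.917).

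Of 15 other MMP genes, 11 were tested. In SCC6, MMP24, a membrane-type MMP, rose (log2 fold change of 4.92 ± 0.70, adjusted p = 0.00851) from 0.00996 and 0.0486 to 1.09 and 1.07 CPM. MMP28, a secreted MMP of epithelia, fell (-2.30 ± 0.52, adjusted p = 0.0405) from 4.62 and 2.1 to 1.11 and 0.522 CPM. Across the lines MMP24 (3.24 ± 0.56, adjusted p = 0.0141) and MMP23B (1.01 ± 0.18, adjusted p = 0.0166) rose. The median over the 11 genes was 0.37 in SCC6. In SCC1 and SCC25 edgeR called 0 of the 11. With the block, 2 were called higher in SCC1 (MMP28 and MMP17), against 4.45% of all genes. In SCC6 the block called 2 higher (MMP24 and MMP11) and 2 lower (MMP28 and MMP12), against 20.1% of all genes, and in SCC25 it called 0, against 0.978%. These names from the block were chosen after the values were seen.

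Among 10 tested inhibitors and partners, TIMP2, the inhibitor that links MMP14 to the MMP2 precursor, rose in SCC6 (1.25 ± 0.30, adjusted p = 0.0487) and across the lines (1.18 ± 0.16, adjusted p = 0.00600). It went from 46.7 and 32.5 to 128 and 95.1 CPM in SCC6, from 43.9 and 28.4 to 94.4 and 63.4 CPM in SCC1 and from 19.2 and 13.5 to 41.3 and 34.4 CPM in SCC25. Treated and untreated values did not overlap in any line. With the block TIMP2 was called in each line, with adjusted p of 0.00699 for SCC1, 0.000997 for SCC6 and 0.0107 for SCC25. The block also called members of this list lower, which were named after their values were seen. CD44, a hyaluronan receptor, was called lower in SCC1 (-0.92 ± 0.21, adjusted p = 0.0482), in SCC6 (-1.09 ± 0.21, adjusted p = 0.0109) and across the lines (-0.70 ± 0.19, adjusted p = 0.0439). PLAUR, the urokinase receptor, was called lower in SCC6 (-1.20 ± 0.33, adjusted p = 0.0379). The block thus called 1 of the 10 higher and 1 lower in SCC1, 1 higher and 2 lower in SCC6, 1 higher in SCC25 and 1 higher and 1 lower across the lines, against 4.45%, 20.1%, 0.978% and 11.6% of all genes. The list median was -0.45 in SCC6. Across the lines it was 0.05 without the block and -0.08 with it.

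Among 12 tested ADAM and ADAMTS proteases, ADAMTS15 rose in SCC6 (3.68 ± 0.37, adjusted p = 0.00308) from 0.199 and 0.214 to 3.42 and 2.82 CPM. ADAM9, a sheddase, rose across the lines (0.45 ± 0.11, adjusted p = 0.0411). Among 16 AP-1, ETS and RUNX factors, 2 fell in SCC6 and none was called across the lines. FOSL1, an AP-1 subunit, went from 81.3 and 40.7 to 3.28 and 15.1 CPM (-2.97 ± 0.70, adjusted p = 0.0456). ELF3, an epithelial ETS factor, went from 215 and 142 to 42.6 and 45.7 CPM (-2.26 ± 0.53, adjusted p = 0.0463). With the block, 5 of the 16 factors (1 higher, 4 lower) and 6 of the 12 proteases (5 higher, 1 lower) were called in SCC6, against 20.1% of all genes. Across the lines the block called 4 factors (2 higher, 2 lower) and 6 proteases (5 higher, 1 lower), against 11.6%. It also called ADAMTS15 higher in SCC1 (1.12 ± 0.25, adjusted p = 0.0459) and ELF3 lower in SCC25 (-1.12 ± 0.19, adjusted p = 0.0413). FOSL1 values in SCC25 overlapped between groups, at 67.9 and 32.1 CPM untreated and 101 and 41.8 CPM treated.

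Of 13 matrix proteins and other MMP substrates, 5 were called higher and 1 lower in SCC6, against 2.51% and 1.3% of all genes, and the other 7 were not called. Called higher were COL1A1 (3.45 ± 0.41), COL4A1 (3.00 ± 0.52), COL4A2 (2.30 ± 0.41), TNC (3.10 ± 0.56) and COL3A1 (4.44 ± 0.80). The size of the COL3A1 change rests on few counts, with 19 UMIs over untreated SCC6 and 0 over untreated SCC1. COL4A1, a chain of basement membrane collagen, went from 12.4 and 13.2 to 139 and 101 CPM. Called lower was HBEGF, an EGFR ligand that proteases release from the membrane, which was named after its values were seen (-3.19 ± 0.76, adjusted p = 0.0481, and 0.0516 with the block). Its untreated SCC6 samples lay far apart, with a mean of 71.6 CPM and a standard deviation of 71.7 CPM. In treated SCC6 the mean was 9.39 CPM and the standard deviation 5.55 CPM. Across the lines COL3A1, TNC and COL4A1 rose. With the block, 7 of 13 were called higher and 0 lower in SCC6, against 20.1% of all genes, and 8 higher across the lines, against 11.6%. The block called 3 higher in SCC1 and 3 higher in SCC25, against 4.45% and 0.978%. Among the 13 genes the median was 0.82 in SCC1, 1.39 in SCC6, 0.86 in SCC25 and 0.83 across the lines.

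The squamous label was checked against KRT5, KRT14, KRT17, TP63, SFN, CDH1 and EPCAM, whose summed level was 988 to 13000 CPM. In SCC6, KRT5 and KRT14 were under 5 CPM in all 4 samples, while KRT17 was at 439.9 to 2449 CPM. Of 4 leukocyte markers, PTPRC, CD3E and LYZ stayed at or below 0.067 CPM. CD68, a lysosomal protein best known from macrophages, stood at 116 to 188 CPM in SCC25, 3.37 to 25.4 CPM in SCC6 and 7.71 to 19.4 CPM in SCC1, and made up nearly all of the leukocyte sum. In SCC6 it went from 25.4 and 11.8 to 3.37 and 4.16 CPM, and its part in the results was not tested. The summed level of 5 fibroblast markers (DCN, LUM, PDGFRB, COL1A1 and COL3A1) went from 0.947 and 2.97 CPM at the ends of its range in untreated SCC6 to 23.0 and 27.8 CPM in treated SCC6, and from 17.7 and 36.6 to 40.8 and 77.7 CPM in SCC25. COL1A1 made up 18.9 to 23.1 CPM of the treated SCC6 sum. In each SCC25 sample the largest part of the sum was LUM, a matrix proteoglycan, at 8.50 and 28.1 CPM untreated and 17.8 and 56.1 CPM treated. DCN did not exceed 2.25 CPM in any sample. In SCC1 the fibroblast sum went from 3.23 and 2.95 to 5.84 and 3.52 CPM. The squamous sum was also higher after cetuximab within each pair of same-numbered samples. It went from 1085 and 988 to 2412 and 3150 CPM in SCC6 and from 6691 and 6880 to 11890 and 11060 CPM in SCC1. In SCC25 it went from 6232 and 10400 to 8097 and 13000 CPM. Both sums thus moved with MMP14 and MMP2, and their part in the change of these genes was not tested.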

How the data were processed

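scRNA-seq libraries (Chromium 3′ chemistry) of the 12 samples had been processed by the authors with Cell Ranger and filtered with Monocle. GRCh38 and Cell Ranger are named in the submitters' processing notes, and the Cell Ranger version is not given in the sources used here. The deposited tables hold raw UMI counts per gene and cell, which no normalisation had changed, in 1 table per line. Columns of sample values not used numbered 0. Rows of the same symbol (24 symbols) were added. Groups, doses and replicate numbers came from the sample labels.

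The 10 genes and the gene lists were chosen with earlier results of these data known. From the lists, genes called in the main fit were named, at most 4 per list and comparison by smallest p. For each of the 10 genes with a mean of at least 10 CPM, the 3 genes of highest Pearson r were named.

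All 23914 cells were used, and no doublet caller was run. Depth was 57057402 to 112170073 UMIs per sample, with a median of 24078.5 to 54864 UMIs per cell. Between replicates of a group 3 to 10 barcodes were shared, and between other samples 1 to 13. Counts were summed per sample and fitted with edgeR 4.0.16 (R 4.3.3; TMM factors, filterByExpr, glmQLFit and glmQLFTest, two-sided) with 6 group means over all 12 samples. DESeq2 1.42.0 was an alternative. Same-numbered treated and untreated samples of a line deviated together, with correlations of 0.320 in SCC1, 0.313 in SCC6 and 0.571 in SCC25, so the replicate number, taken from the labels, was treated as a pairing. UMIs are counts of 3′ ends, and reads shared between near-identical genes could be split by the counting. Intervals and floors cover counting error only. The main edgeR fit and the thinning were tested on simulated data. The counts simulated for the fit had the same spread for all genes and no replicate effect. That test therefore does not cover genes that vary as much between replicates as MMP1, nor the fits with the block or DESeq2. Thinning and plots used Python 3.11.15.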

Additional observations from a re-analysis of the deposited data

Results flagged for a closer look

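MMP14 and MMP1 stood out because the effect of cetuximab differed between the lines in the test of that difference with the replicate block, at adjusted p = 0.0279 for MMP14 and 0.0312 for MMP1. MMP14 was higher after cetuximab in all 3 lines, by 2.09 in SCC6, 0.76 in SCC1 and 0.63 in SCC25 on the log2 scale. MMP1 had a log2 fold change of -4.46 in SCC6 and -1.17 in SCC25, and with the block the difference between these effects was 3.25 ± 0.45 (adjusted p = 0.0302). Without the block neither passed, at adjusted p = 0.250 for MMP14 and 0.777 for MMP1.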

How the results depend on the processing

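Of the 10 genes, calls in SCC1 came to 2 with DESeq2, 1 with no low-count filter and 2 with the block, against 0. In SCC6 they came to 5, 4 and 5, and to 2 in a fit to that line alone, against 1. For the interaction they came to 3, 2 and 2, against 0. Over all genes and in the same order, calls were 274, 243 and 797 in SCC1 (0 in a fit to 1 line), 1671, 1233 and 3589 in SCC6 (265 in a fit to 1 line), 101, 128 and 175 in SCC25 (1 without the 5% of cells with most UMIs), 1771, 1043 and 2073 across lines and 276, 248 and 230 for the interaction. For the 10 genes, the block changed no cetuximab call other than those given with the results. For the other listed genes it also added interaction calls for MMP28, ADAMTS15, ELF3, COL4A1, COL4A2, COL1A1 and FN1. Between untreated lines, a block within each line takes the spread between replicates out of the error, so its counts (7, 8 and 6 of the 10 genes and 10288, 10518 and 10407 of all genes for SCC6 against SCC1, SCC25 against SCC1 and SCC25 against SCC6) were not read as calls. The cause of these shifts was not tested.

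Leaving out each of the 12 samples in turn gave 1 to 3 of the 10 genes in SCC6, 0 to 2 across lines (0 without untreated SCC6 replicate 2) and 2 to 6 between untreated SCC25 and SCC6 (2 without untreated SCC6 replicate 1 or untreated SCC25 replicate 2). Over all genes it gave 0 to 6 in SCC1, 11 to 749 in SCC6 (11 without untreated SCC6 replicate 1, 61 without treated SCC6 replicate 1), 0 to 1 in SCC25, 202 to 596 across lines, 0 to 14 for the interaction, 4754 to 7328 between untreated SCC6 and SCC1 and 4707 to 7491 between untreated SCC25 and SCC1.

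Among the cetuximab changes of the 10 genes, signs turned for uncalled ones: MMP13 across lines was 0.16 with DESeq2, and TIMP1 in SCC1 was -0.022 without the 5% of cells with most UMIs. With samples left out in turn, log2 fold changes ranged in SCC25 from -2.93 to 0.70 for MMP1, -1.52 to 0.76 for MMP13, -1.23 to 1.37 for MMP10, -1.07 to 0.51 for MMP7 and -0.90 to 0.98 for MMP9. They ranged in SCC1 from -3.76 to 3.23 for MMP1, -1.86 to 0.14 for MMP9 and -0.046 to 0.053 for TIMP1, in SCC6 from -1.11 to 0.28 for MMP13 and -0.84 to 0.96 for MMP9, and across lines from -0.29 to 0.50 for MMP13 and -0.76 to 0.10 for MMP9. Depth limits MMP1, MMP2, MMP7, MMP10 and MMP13 in SCC1, at 0 to 39 UMIs per sample.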
